A study of Mus musculus with 4 samples.

Results

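Cytosolic and mitochondrial chaperone genes were followed in mouse macrophages that lacked PP2ACα, the alpha isoform of the catalytic subunit of protein phosphatase 2A. The list holds 35 genes. Members were taken where the platform's probe annotation gives a feature that single gene symbol, and where a gene had several such features, the brightest on average was kept. This gave 32 members, out of 22180 genes named in this way, and all 32 passed the filter on dim genes (a mean over the 4 arrays of at least 3.53 log2 units, the median of all features). Hsp90ab1, Dnaja1 and Hsf1 had no feature with that single symbol and were not analysed here.

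RNA came from bone marrow derived macrophages cultured for 6 days with L-cell supernatant, a source of macrophage growth factor, and then given 100 ng/ml of lipopolysaccharide (LPS), a bacterial cell wall component, for 2 hours. The knockout group (PP2ACαfl/fl;lyM-Cre, 2 arrays) carried floxed alleles of Ppp2ca together with a myeloid Cre recombinase that removes exon 1, and the control group (PP2ACαfl/fl, 2 arrays) carried the floxed alleles without Cre. Both groups had received LPS, so no array shows unstimulated cells, and the presence of Cre and the loss of the subunit cannot be told apart. The arrays are labelled biological replicates, and the labels do not say whether they came from separate mice or give the animals' age or strain, so the p-values measure the spread between these arrays. The values are RMA log2 intensities, which are background-adjusted and normalized between arrays. They allow comparison of 1 gene between arrays, but not of the levels of different genes.

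Chaperones bind unfolded or partly folded proteins and let them reach their native form. HSP70 proteins do so in cycles of ATP binding and hydrolysis, in which J proteins deliver the client and start hydrolysis, and nucleotide exchange factors release it. HSP90 acts later on clients such as kinases and steroid receptors with the help of co-chaperones, TRiC is a ring-shaped chaperonin that folds actin and tubulin in the cytosol, and HSP60 with its lid HSP10 does the same for imported proteins in mitochondria. Many of these genes are induced by heat shock factor 1 through the heat shock element, a run of inverted GAA repeats.

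A heat shock element of at least 3 units lies near the start of 5 members. The sequences are shown because these members include the pair with a shared promoter and differed in both directions. The RefSeq promoter windows of build GRCm38.p6, which run from 250 bases before to 50 after each start, were searched for GAANNTTCNNGAA and TTCNNGAANNTTC. Each form is the reverse complement of the other, so both strands were covered. Overlapping matches were joined, so a joined match can hold more than 3 units. The joined matches have 13 bases in Hsph1 and Dnajb6, 18 in Hspe1 and Hspd1 and 23 in Chordc1. Of 28 tested members with a window, 5 (17.9%) held a match in at least 1 window, and 0.662% of the 27025 genes in the table did, or 0.603% of all windows. Each stretch below has 30 bases, 5′ to 3′ on the gene's own strand, with the joined matches in capitals.
Hspe1 (chr1:55088053-55088082, plus strand): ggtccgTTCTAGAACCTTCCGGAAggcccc
Hspd1 (chr1:55088053-55088082, minus strand): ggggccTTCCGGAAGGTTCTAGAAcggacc
Hsph1 (chr5:149636287-149636316, minus strand): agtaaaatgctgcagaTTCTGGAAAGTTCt
Dnajb6 (chr5:29735843-29735872, plus strand): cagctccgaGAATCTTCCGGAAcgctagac
Chordc1 (chr9:18292259-18292288, plus strand): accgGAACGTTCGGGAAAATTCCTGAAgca
The Hspe1 and Hspd1 matches are the same bases read from opposite strands, since these neighbouring genes run in opposite directions from starts that lie 215 bases apart. In Hspe1 the match covers positions -89 to -72 from the start, and in Dnajb6 positions -46 to -34. In Chordc1 it runs across the start, from -4 to 19, and in Hsph1 it lies after a start, at 37 to 49. A match is a description of the letters in the window and says nothing of binding.

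Chaperone mRNA levels differed by less than 1.5-fold on group means between the genotypes, and the differences lay mostly on the negative side. They did so in all 7 TRiC and all 5 mitochondrial members, while signs went both ways among the other members. Negative were 2 of 5 HSP70 genes, 2 of 3 HSP110 relatives, 1 of 4 J proteins and 3 of 5 co-chaperones. Hsp90aa1 was negative too, and Hspb1 and Hsf2 were positive. Of the 32 members, 21 had a lower mean in knockout cells, against 48.7% of all 12542 tested genes, and the median difference (knockout minus control) was -0.17 log2 units, against 0.01 over all tested genes. No member passed limma's test at an adjusted p of 0.05, where 6.79% of all tested genes passed. At an unadjusted p under 0.05 there were 13 members, 10 lower and 3 higher in knockout, beside 24.7% of all tested genes (12.1% lower and 12.6% higher). Both knockout arrays lay below both control arrays in 18 members and above them in 6, or 24 without overlap in all, where 26.5%, 28.8% and 55.3% of all tested genes did so. Set against each gene's mean over the 4 arrays, the median member stood at -0.08 and -0.06 on the knockout arrays and at 0.07 and 0.10 on the control arrays, while the median of all tested genes stayed between -0.01 and 0.01. None of the members reached the 1.5-fold cutoff named by the series' design text, a difference of 0.585 log2 units on group means, which 5.24% of all tested genes reached. A lower cutoff of 0.322 log2 units was passed by 8 members and by 19.6% of all tested genes.

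The size of these differences bears on the count of calls. In simulated data of the same design, 2 against 2 arrays over 12542 genes, the test recovered 9.4% of genes changed 1.5-fold and 0.4% of those changed 1.3-fold. Each simulation changed only 200 genes, while 852 were called in these data. The adjusted cutoff is looser where more genes change, so these shares cannot be carried over to the members. The count also depended on the variance model: 9 members passed when limma's prior variance followed intensity (12.6% of all tested genes then passed), namely Cct2, Cct3, Cct7, Tcp1, Hspd1, Hspe1, Hsph1 and Fkbp4, all lower, and Chordc1, higher. With only genes of a mean of at least 5 log2 units tested, 6 of 31 members passed, beside 17.0% of all. Quantile normalization gave 1 (Cct7, beside 7.03%) and centring of each array on its median 3 (Cct7, Fkbp4 and Hspd1, beside 7.58%), all lower. The 4 fits with 1 array left out called none.

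**Figure D1:**
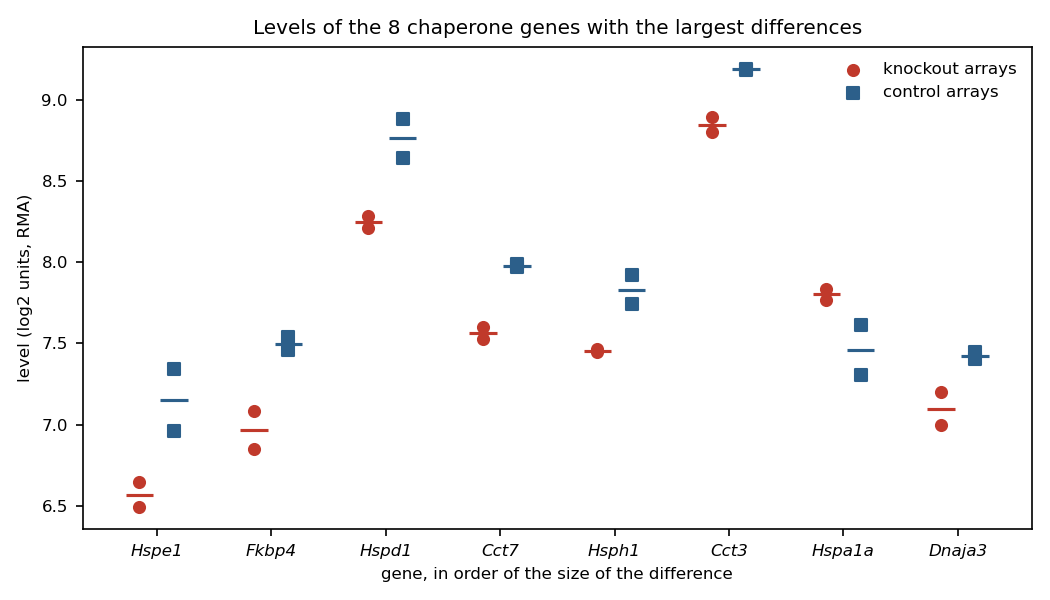
Levels (log2 units, RMA) of the 8 members with the largest differences between the group means, with 1 point per array and a bar at each group's mean of 2 arrays. Levels are compared within a gene and not between genes. The groups do not overlap in any of the 8, and Hspa1a is the one with the higher level in knockout. Picking genes by the size of the difference favours groups that do not overlap, and 55.3% of all tested genes had none.

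Among the mitochondrial chaperones, which include the member with the largest difference, all 5 had both knockout arrays below both control arrays, as 26.5% of all tested genes did. Hspe1, the lid protein HSP10, read 6.65 and 6.49 log2 units on the knockout arrays, against 7.34 and 6.96 on the control arrays. Its difference was -0.58 (95% interval -0.95 to -0.21, limma adjusted p = 0.084), just inside 1.5-fold, with an SD of 0.11 between the knockout arrays and of 0.27 between the control arrays. Hspd1, the HSP60 chaperonin that Hspe1 closes, read 8.28 and 8.21 in knockout and 8.64 and 8.88 in control cells. That is a difference of -0.51 (-0.80 to -0.23, adjusted p = 0.058) in the gene that shares the heat shock element shown above. Both genes were lower on each knockout array, but neither passed the test.

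Dnaja3, the J protein of mitochondrial HSP70, read 6.995 and 7.199 in knockout cells and 7.40 and 7.45 in control cells, a difference of -0.33 (SE 0.10, adjusted p = 0.13). The 2 dimmer features of Dnaja3 differed by 0.21 and 0.03. Trap1, the mitochondrial HSP90, was 7.33 on both knockout arrays, against 7.55 and 7.47 on the control arrays (difference -0.18, adjusted p = 0.27). Hspa9, the mitochondrial HSP70 that takes part in protein import, read 10.78 and 10.79 in knockout and 10.82 and 11.05 in control cells. Its difference of -0.15 (adjusted p = 0.46) depended on the control arrays: it was -0.032 without control replicate 2 and -0.27 without control replicate 1. The median difference over the 5 genes was -0.33, the value of Dnaja3 itself. With the features of each gene averaged, these dim ones included, the Dnaja3 difference was -0.031 and the median of the 5 genes -0.18.

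All 7 measured TRiC subunits had both knockout arrays below both control arrays, as 26.5% of all tested genes did. Their differences had a narrow range from -0.41 to -0.19 and a median of -0.30, or a ratio of control to knockout of 1.23. Cct7 read 7.53 and 7.60 in knockout cells, against 7.99 and 7.97 in control cells, a difference of -0.41 (95% interval -0.63 to -0.20, adjusted p = 0.053), the smallest adjusted p of the 32 members. Cct3 read 8.80 and 8.89 in knockout and 9.19 on both control arrays (difference -0.34, interval -0.56 to -0.12, adjusted p = 0.085). In both subunits the gap between the groups exceeded the spread within either, with SDs of 0.05 and 0.06 in knockout and of 0.012 and 0.003 in control cells.

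The other 5 subunits differed by less. Cct8 was at 9.54 and 9.43 in knockout and 9.69 and 9.87 in control cells (-0.30), and Tcp1, the alpha subunit, at 10.05 and 10.04 in knockout and 10.27 and 10.41 in control cells (-0.30). The second feature of Tcp1, which was dim, differed by -0.06, and with both averaged the Tcp1 difference was -0.18 (adjusted p = 0.44). Cct2 differed by -0.27, Cct4 by -0.21 and Cct5 by -0.19. The adjusted p of the 7 genes ran from 0.053 to 0.26. Of them, 5 had an unadjusted p under 0.05, all but Cct4 and Cct5, where 12.1% of all tested genes were lower at that cutoff. With 1 array left out, the TRiC differences ranged from -0.45 to -0.14. Their sign could not change, because the groups did not overlap in any of the 7 genes. Cct6a, a subunit outside the member list, differed by -0.41 (adjusted p = 0.052). It was chosen after its value was seen and is no independent support for the members.

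**Figure D2:**
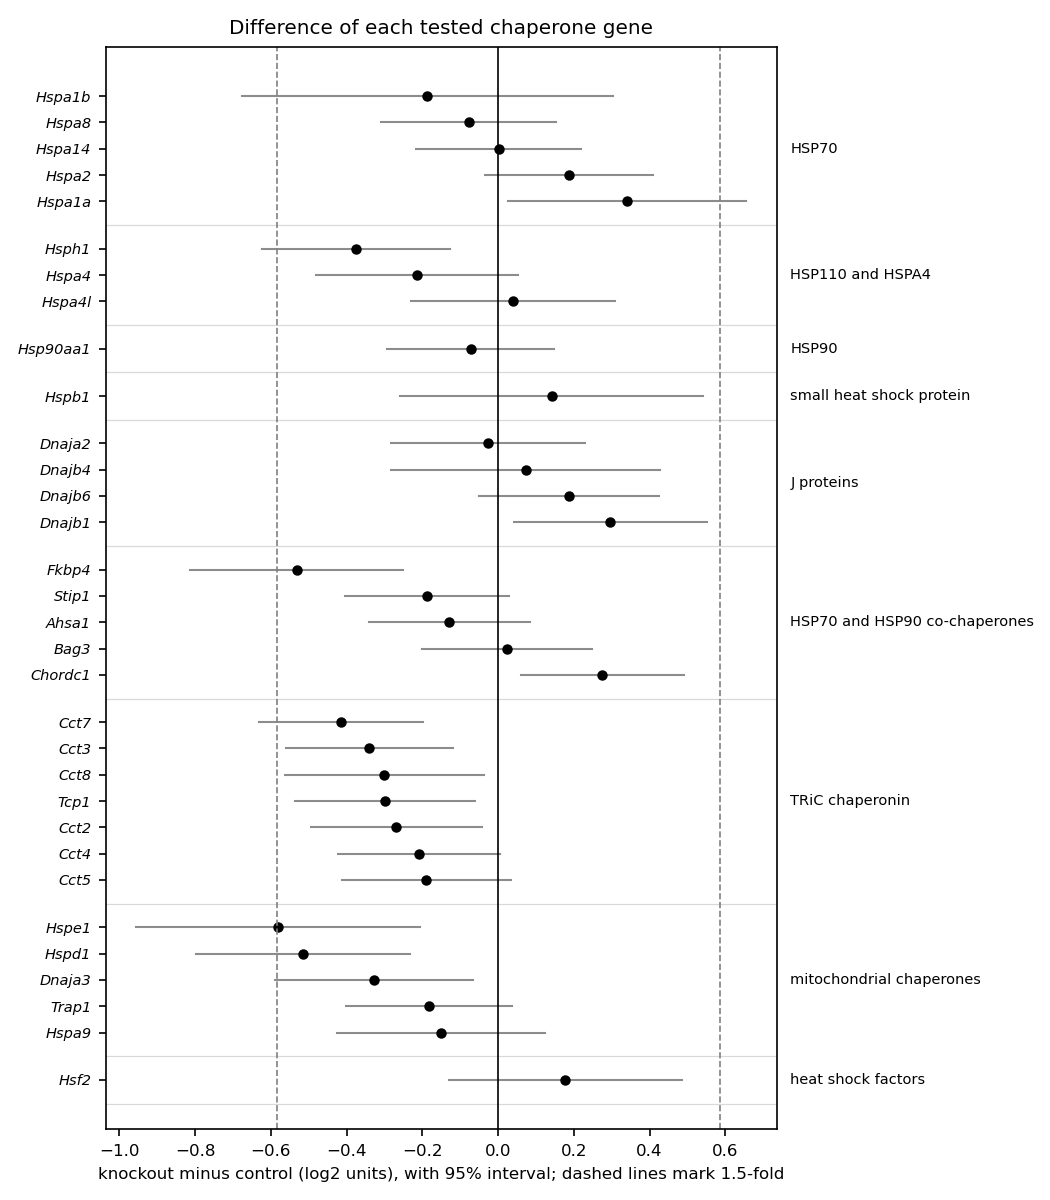
Knockout minus control difference (log2 units) of each of the 32 tested members, by role, with the 95% interval from limma's fit. The TRiC and mitochondrial points all lie below 0, while HSP70 genes and J proteins lie on both sides. The dashed lines mark 1.5-fold, which no point crosses.

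The HSP70 genes of the cytosol were not shifted in 1 direction: 3 of 5 had a higher and 2 a lower mean in knockout, and the median difference was 0.00. Hspa1a, a stress-inducible HSP70, read 7.76 and 7.84 log2 units in knockout cells, against 7.31 and 7.61 in control cells. The difference was 0.34 (95% interval 0.03 to 0.66, adjusted p = 0.18), the largest positive one among the members over the 4 arrays, and 0.19 without control replicate 1, where Dnajb1 (0.35) and Chordc1 (0.30) were larger. Hspa1b, its near-identical neighbour on the same chromosome, read 6.17 and 6.57 in knockout and 6.34 and 6.77 in control cells, so the groups overlapped (difference -0.19, interval -0.68 to 0.30, adjusted p = 0.61). The promoter windows of the 2 genes match at 296 of 300 positions (98.7%), but these windows lie mostly before the start. Probes for one may read the other's transcript, so their separate values are uncertain. Probe and transcript sequences were not compared.

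Hspa8, the constitutive HSP70, read 11.37 and 11.46 in knockout and 11.54 and 11.45 in control cells, with overlapping groups and a difference of -0.08 (interval -0.31 to 0.15). Its 3 dimmer features differed by -0.30, -0.80 and -0.78, and in each of them the first control array stood alone. In the same order it read 7.31, 7.65 and 7.59, while the second control array read 6.79, 6.77 and 6.56. When the features of a gene were averaged, the Hspa8 difference was -0.49 (adjusted p = 0.22), so its size depends on the feature. Hspa2, an HSP70 best known from male germ cells, read 5.59 and 5.62 in knockout and 5.37 and 5.47 in control cells (difference 0.19, adjusted p = 0.26). Hspa14, a ribosome-associated HSP70, differed by 0.0018 (interval -0.22 to 0.22).

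**Figure D3:**
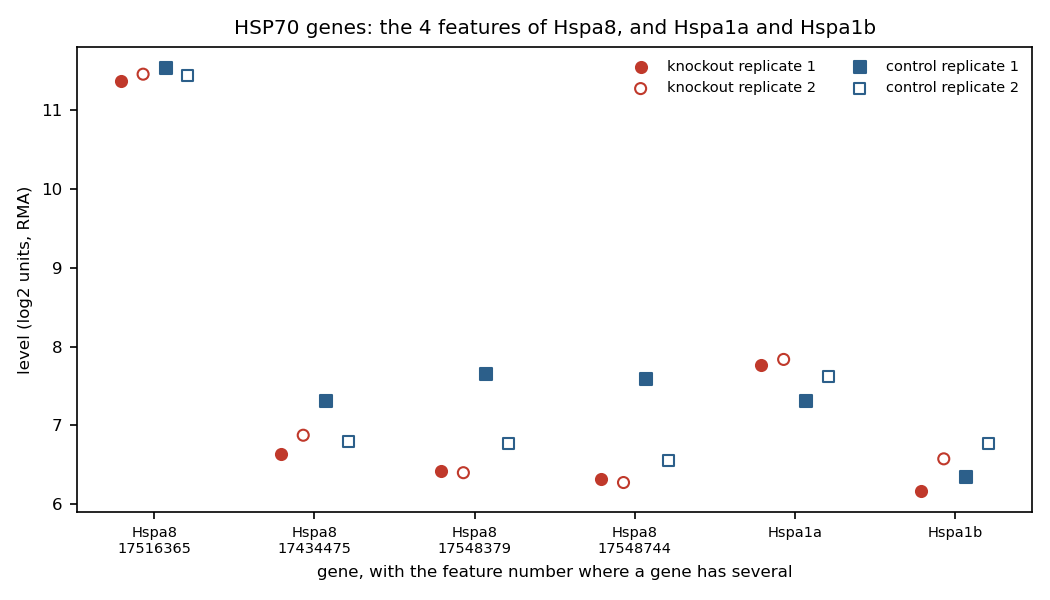
Levels (log2 units, RMA) on the 4 arrays for the 4 features of Hspa8, the used one first, and for Hspa1a and Hspa1b, with 1 symbol per array. In the 3 dimmer Hspa8 features control replicate 1 lies above the other 3 arrays, and the Hspa1b groups overlap while those of Hspa1a do not.

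The HSP110 group, relatives of HSP70 that serve it as nucleotide exchange factors, held 1 of the larger negative differences. Hsph1, which carries the heat shock element after its start, read 7.46 and 7.45 in knockout cells, against 7.74 and 7.92 in control cells, a difference of -0.38 (interval -0.62 to -0.13, adjusted p = 0.089). Hspa4 read 9.87 and 9.82 in knockout and 9.95 and 10.16 in control cells (difference -0.21, adjusted p = 0.28), again without overlap, but the difference was -0.11 without control replicate 2. Hspa4l overlapped between the groups, with a difference of 0.04.

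Hsp90aa1, the inducible cytosolic HSP90, read 7.57 on both knockout arrays, against 7.69 and 7.60 on the control arrays. The groups did not overlap, but the difference of -0.07 (interval -0.29 to 0.15, adjusted p = 0.66) was near 0. Hspb1, a small heat shock protein that holds unfolded proteins without ATP, was dim on every array, at 3.61 and 3.91 in knockout and 3.45 and 3.79 in control cells, close to the filter level of 3.53, and its groups overlapped.

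Of the 4 cytosolic J proteins measured, 3 had a higher and 1 a lower mean in knockout. Dnajb1, the HSP40 partner of inducible HSP70, read 6.53 and 6.69 in knockout cells, against 6.36 and 6.26 in control cells, a difference of 0.30 (interval 0.04 to 0.55, adjusted p = 0.15). Dnajb6, which suppresses protein aggregation and carries the element 46 bases before its start, read 7.15 and 7.21 in knockout and 6.92 and 7.06 in control cells (difference 0.19, adjusted p = 0.29, and 0.12 without control replicate 1). Neither passed the test, although both knockout arrays of both genes were the higher ones. Dnajb4 (0.07) and Dnaja2 (-0.03) overlapped between the groups.

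The co-chaperones also divided. Fkbp4, an immunophilin that joins HSP90 in steroid receptor complexes, read 7.09 and 6.85 in knockout cells, against 7.54 and 7.46 in control cells. Its difference of -0.53 (interval -0.81 to -0.25, adjusted p = 0.055) was the second largest among the members. Chordc1, an HSP90-binding protein whose element spans its start, read 8.63 and 8.66 in knockout cells, against 8.39 and 8.34 in control cells, a difference of 0.28 (interval 0.06 to 0.49, adjusted p = 0.12). Stip1, the adaptor that links HSP70 to HSP90, differed by -0.19 and Ahsa1, the activator of the HSP90 ATPase, by -0.13, both without overlap, with adjusted p of 0.25 and 0.41. Bag3, an HSP70 exchange factor of selective autophagy, differed by 0.02 and overlapped.

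Hsf2, a heat shock factor and the only one measured here, read 7.15 and 7.14 in knockout and 6.82 and 7.11 in control cells. The groups did not overlap, but the second control array lay close below the knockout arrays, and the difference of 0.18 (interval -0.13 to 0.49, adjusted p = 0.43) was 0.028 without control replicate 1 and 0.33 without control replicate 2.

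Of the 5 members with an element of at least 3 units, Hspe1, Hspd1 and Hsph1 were lower on both knockout arrays and Dnajb6 and Chordc1 higher on both. Groups without overlap were found in 55.3% of all tested genes. Most of the 28 tested members with a window held no such match. Among these were Hspa1a and Dnajb1, with positive differences, and Hspa1b and Fkbp4, with negative ones. Only these exact forms in windows of 300 bases were searched, so an element of another form or place would be missed.

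A wider list held 68 further chaperone, co-chaperone and mitochondrial quality control genes, of which 58 were tested. In it 4 genes passed (6.9%), near the 6.79% of all tested genes called in either direction. All 4 were lower in knockout, where 3.49% of all tested genes were called lower. All 4 act in mitochondria. Grpel1, the nucleotide exchange factor of Hspa9, fell to 5.97 and 5.82 log2 units in knockout cells, against 6.55 and 6.39 in control cells, a difference of -0.58 (interval -0.85 to -0.31, adjusted p = 0.040). Timm9, a small chaperone of the intermembrane space, fell by 0.57 (adjusted p = 0.026), Htra2, a protease of the same space, by 0.54 (adjusted p = 0.041) and Clpp, the matrix protease, by 0.43 (adjusted p = 0.045). In each of the 4 genes both knockout arrays lay below both control arrays. With any 1 array left out, none of the 4 passed, where 96 to 174 of all tested genes did.

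By group, 16 of 19 tested genes of the wider mitochondrial list had a negative difference (median -0.22), beside 48.7% of all tested genes, and 8 had an unadjusted p under 0.05, all negative, beside 12.1%. Of the 31 other cytosolic genes 20 were negative, with a median of -0.04 and none called. Of 8 chaperonin and prefoldin genes 6 were negative, with a median of -0.13. Of 18 tested chaperones of the endoplasmic reticulum 14 were negative, with a median of -0.10 and none called by limma (5 at an unadjusted p under 0.05, or 27.8%, beside 24.7% of all tested genes). Sdf2l1 differed by -0.61 (adjusted p = 0.067), Hyou1, the HSP110 relative of that compartment, by -0.46 (adjusted p = 0.053), and Dnajb9 by 0.37 (adjusted p = 0.091). The differences between these groups were not tested.

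**Figure D4:**
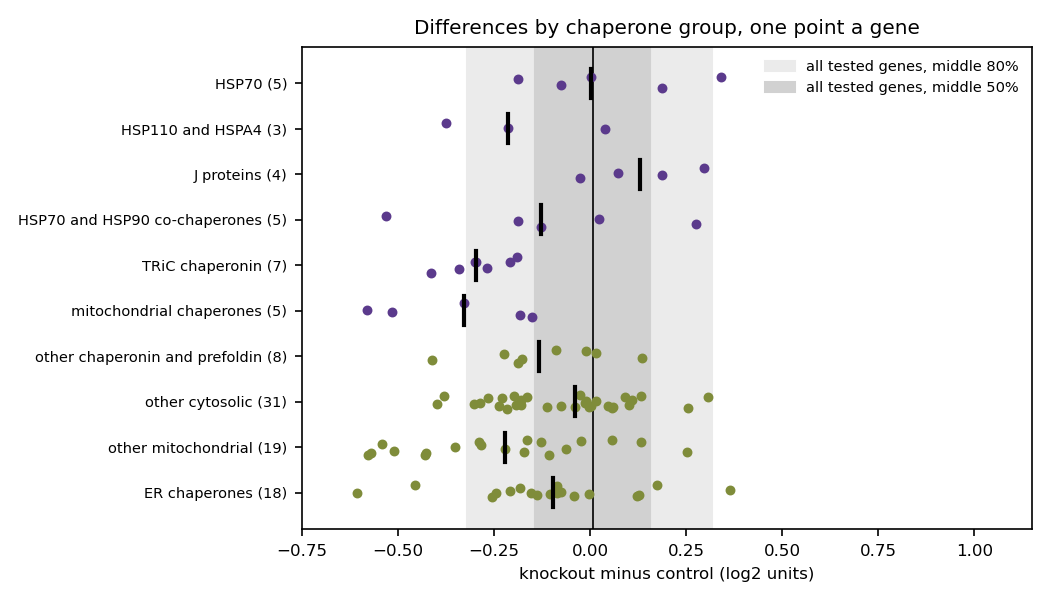
Knockout minus control differences (log2 units) by chaperone group, with 1 point per tested gene, a thick bar at each group's median and the number of genes in brackets. Member groups of more than 1 gene are in purple, and genes outside the member list are in green. The light and dark bands hold the middle 80% and 50% of all tested genes, from -0.32 to 0.32 and from -0.14 to 0.16. The bands show the spread of single genes and are no measure for a group's median.

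As a check of the labels, Ppp2ca read 4.36 and 3.39 log2 units in knockout cells, against 8.25 and 7.59 in control cells, and Lyz2, the lysozyme gene widely used to drive myeloid Cre, differed by -5.19. The other 9 macrophage markers were all above the filter on both groups' arrays, with Fcgr1 higher (0.94) and the rest not called. Of 5 tested monocyte markers 3 were called higher (Ms4a4c, Ccr2 and Ly6c2) and F13a1 lower. Their summed linear level was 1220 to 1280 in knockout and 1190 to 1300 in control cells, a sum led by the bright features of F13a1 and Ccr2, whose differences had opposite signs. Of the other lists, 4 of 9 neutrophil, 2 of 8 T and NK cell, 1 of 6 B cell and 3 of 8 fibroblast markers reached the filter, and none was called. Summed over all genes with a feature, dim ones included, neutrophil markers were at 138 to 145 in knockout and 124 to 129 in control cells. T and NK cell markers were at 133 to 134 and 98.8 to 113, and B cell markers at 70.0 to 70.9 and 62.1 to 65.4. The fibroblast sums overlapped, at 79.6 to 81.9 and 81.5 to 87.0. In such bulk RNA, fewer cells of a type and less RNA per cell cannot be told apart. The part of monocyte-marked or other cells in the chaperone values was not tested.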

How the data were processed

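The deposited table holds log2 values of 41345 features on 4 arrays. According to the design text of the series, the authors produced them by robust multi-array averaging with background adjustment and normalization. RMA and oligo are named in the submitters' processing notes, and versions and genome build are not given in the sources used here. Normalization between arrays removes any change in total RNA per cell. The probe annotation gave a single gene symbol for 23521 features, several for 1814 and no row for 16010, which are unnamed here. Knockout and control were compared with limma 3.58.1 in R 4.3.3 (lmFit, eBayes with a constant prior variance) over 12542 genes, two-sided, with Benjamini-Hochberg adjustment over all of them. The fit had 2 residual and 3.51 prior degrees of freedom, and the 95% intervals use both. The fit was tested on simulated data with 200 changed genes in each of 20 simulations, where 4.28% of calls were false. The number of arrays limits the precision.

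Members, gene lists and roles were chosen with earlier results of these data known. Every member is named. Values on each array are given for members that passed (there were none), the 8 with the largest differences, and Hspa1a, Hspa1b, Hsf2, Hspd1, Hspe1 and Hsp90aa1 in any case; values of other members were added after they were seen. Of the wider lists, called genes are named, or the 3 with the largest differences where none passed; Cct6a was chosen after its value was seen. Alternatives covered the filter, normalization, features per gene, arrays left out, a replicate block, the variance model and the fold cutoff.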

Additional observations from a re-analysis of the deposited data

How the results depend on the processing

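Differences of 25 of the 32 members kept their sign in every alternative run, and the other 7 were within 0.19 log2 units of 0. This count is no measure of stability. Changes of the filter or variance model and the replicate block leave a gene's difference as it was. With 1 array left out, the sign could not change in the 24 members without overlap. The number of all tested genes called was 852, with 333 without a filter, 1475 with the stricter filter, 1584 with the intensity trend, 0 without pooling the variance (2295 at an unadjusted p under 0.05) and 15 over all features (3641 unadjusted). Member calls went from 0 to 6 with the stricter filter, 1 with quantile normalization (Cct7), 3 with median centring (Cct7, Fkbp4 and Hspd1) and 9 with the trend. Calls in the wider list of 4 became 8, 4, 7 and 9 under these settings, and 0 without a filter, without pooling and over all features. Calls among chaperones of the endoplasmic reticulum became 3, 1, 1 and 4. The stricter filter tests fewer genes; the cause of the changes was not tested. Median centring gave a member median of -0.21, against -0.17, 1 member past 1.5-fold (Hspe1), and turned the signs of Hspa14 to -0.040, Hspa4l to -0.002 and Bag3 to -0.018. The lower fold cutoff of 0.322 log2 units was passed by 8 members, beside 19.6% of all tested genes.

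With 1 array left out, 96 to 174 of all tested genes, 0 members and 0 genes of the wider list were called, 0 to 2 members passed 1.5-fold (Hspd1, Hspe1 or Fkbp4), and the member median was -0.17 to -0.12. The differences then ranged from -0.40 to 0.028 in Hspa1b, -0.027 to 0.030 in Hspa14, -0.071 to 0.15 in Hspa4l, -0.027 to 0.31 in Hspb1, -0.115 to 0.061 in Dnaja2, -0.11 to 0.26 in Dnajb4 and -0.021 to 0.069 in Bag3. With the replicate block, 312 of all genes, 0 members and 0 genes of the wider list were called; same-numbered arrays did not deviate together (r = -0.036 across genes), so the numbers are not taken to pair the arrays. Dim features such as that of Hspb1 lie near background, where differences are understated.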
